A study of Mus musculus with 27 samples.

Results

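The genes described here are 8 enzymes that dispose of reactive quinones, carbonyls, heme, peroxide and sulfide in the mouse esophagus: Nqo1, Akr1b8, Ptgr1, Aox1, Hmox1, Blvrb, Cat and Sqor. They were chosen by name, as the probes whose gene name in the array files is 1 of these 8 or an older name for it. They are 8 of the 28104 genes named on the array. Each was read by 1 probe, with Ptgr1 written as Ltb4dh in the older files and Sqor written as Sqrdl in the older and newer files alike. Every value is a log2 ratio of the esophageal sample, labelled with Cy5, over a mouse universal reference RNA, labelled with Cy3 and put on every array, so a value of 0 means the same signal as in the reference. Levels are therefore comparable between arrays for 1 gene but not between genes.

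The study followed esophageal development and the roles of Nrf2 and Keap1 in it, with 27 two-colour arrays in 9 groups of 3. Whole esophagus was taken from wild-type (WT) mice at embryonic days 11.5 and 15.5 (E11.5 and E15.5) and postnatal days 0 and 7 (P0 and P7), and at P7 also from Nrf2-/-, Keap1-/- and Nrf2-/-Keap1-/- mice. In 8-week-old adults the tissue was the esophageal epithelium, from WT and Nrf2-/- mice, so adult age and the part of the organ sampled cannot be told apart in any comparison of adult with P7. The labels give WT mice as C57BL/6J and the mutants as on that background, while the study's methods give the knockout lines as on a C57BL background and from another supplier than the WT mice. RNA came from individual esophagi, no group received a treatment, and the knockout alleles were missing from every cell of the animal rather than from 1 cell type. Because whole tissue was measured, fewer cells of a type and less RNA per cell cannot be told apart. P-values measure the spread between 3 animals per group.

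Nrf2, encoded by Nfe2l2, is a transcription factor that switches on antioxidant and detoxifying genes through antioxidant response elements in their regulatory DNA. Keap1 holds Nrf2 at a low level by handing it to a ubiquitin ligase for destruction, and electrophiles or oxidants that modify Keap1 release it. The enzymes in this group act on the electrophiles and oxidants themselves, and several, Nqo1 and Hmox1 above all, are textbook readouts of Nrf2 activity. In a squamous lining such as the esophagus these enzymes meet both food-borne compounds and the products of the cells' own metabolism.

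The median array signal was 81.8 to 226 in Cy5, and 58.9 to 69.3% of probes were well above background in that channel. From P0 on, all 8 squamous epithelium markers were well above background on every array, as were 6 of 8 in each embryonic group. The image software had marked the spot as an outlier on 16 of the 27 arrays for Akr1b8 and for Hmox1, on 10 for Ptgr1 and on 0 to 3 for the others. These spots were kept. Without them Akr1b8, Hmox1 and Ptgr1 could not be tested in WT development or at P7, nor those and Nqo1 between the ages. Akr1b8, Hmox1 and Nqo1 could then not be tested between the adult genotypes. Nfe2l2, as the mean of its 3 probes, gave -3.92 to -3.82 on the Nrf2-/- arrays at P7, -4.14 to -4.08 on the Nrf2-/-Keap1-/- arrays and -3.64 to -2.85 on the adult Nrf2-/- arrays, against -0.55 to 0.00 in WT at P7 and 0.81 to 1.27 in WT adults. The Keap1 probe had means of 0.65 in WT, 0.20 in Keap1-/- and -0.34 in Nrf2-/-Keap1-/- at P7 (limma adjusted p = 0.145 and 0.0794 against WT). It did not separate Keap1-/- arrays (-0.265 to 0.64) from WT arrays (0.42 to 1.00), so it does not check the label of the Keap1-/- arrays. The Nrf2-/-Keap1-/- arrays (-0.50 to -0.19) lay below those of WT, in a comparison where 21.6% of all genes had arrays apart. Where this probe lies relative to the deleted part of the gene was not established. The 3 Keap1-/- arrays were alone on 1 slide and in 1 scan, and were the only P7 arrays read with the newer software version. That genotype therefore cannot be told apart from slide, scan and software version. The WT P7 arrays were also alone on their slide. No slide held both P0 and E15.5 arrays, both adult genotypes, or adult and P7 arrays of 1 genotype. Genotype, stage or age cannot be told apart from slide in those comparisons either. Across all genes the array labelled E11.5 replicate 3 resembled E15.5 replicates 2 and 3 (r = 0.98 and 0.976) more than its own group (0.832 and 0.775), and the array labelled E15.5 replicate 1 resembled E11.5 replicates 1 and 2 (0.957 and 0.927) more than its own group (0.805 and 0.814). The labels were kept. For the enzymes called during development, and for Hmox1 and Akr1b8, differences between stages are also given without both arrays, while the order of group means and the correlations over 27 arrays rest on all of them.

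Over all 9 groups, Keap1-/- at P7 had the highest mean for 7 of the 8 enzymes, and WT adults had the highest for Hmox1. The distance between the highest and lowest group mean was 6.72 log2 units for Nqo1, 5.99 for Akr1b8, 5.51 for Ptgr1, 4.74 for Sqor, 4.08 for Aox1, 3.82 for Hmox1, 3.43 for Blvrb and 3.17 for Cat, beside within-group SDs, pooled over the groups, of 0.24 to 0.64. Most of that distance lay at the upper end of the order, except for Aox1. From WT P0 to WT E11.5, low in the order, Aox1 stepped down by 0.86 and Sqor by 1.42 with arrays apart. When the groups were ranked by mean, neighbouring groups overlapped in their arrays at 6 of 8 steps for Nqo1 and for Akr1b8, at 4 of 8 for Ptgr1 and for Aox1, at 5 of 8 for Blvrb and for Sqor, at 7 of 8 for Cat and at 8 of 8 for Hmox1. Nqo1 stepped down from Keap1-/- to WT adult by 1.43 and from WT adult to Nrf2-/- adult by 3.41, after which the remaining 7 groups overlapped from neighbour to neighbour.

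**Figure D1:**
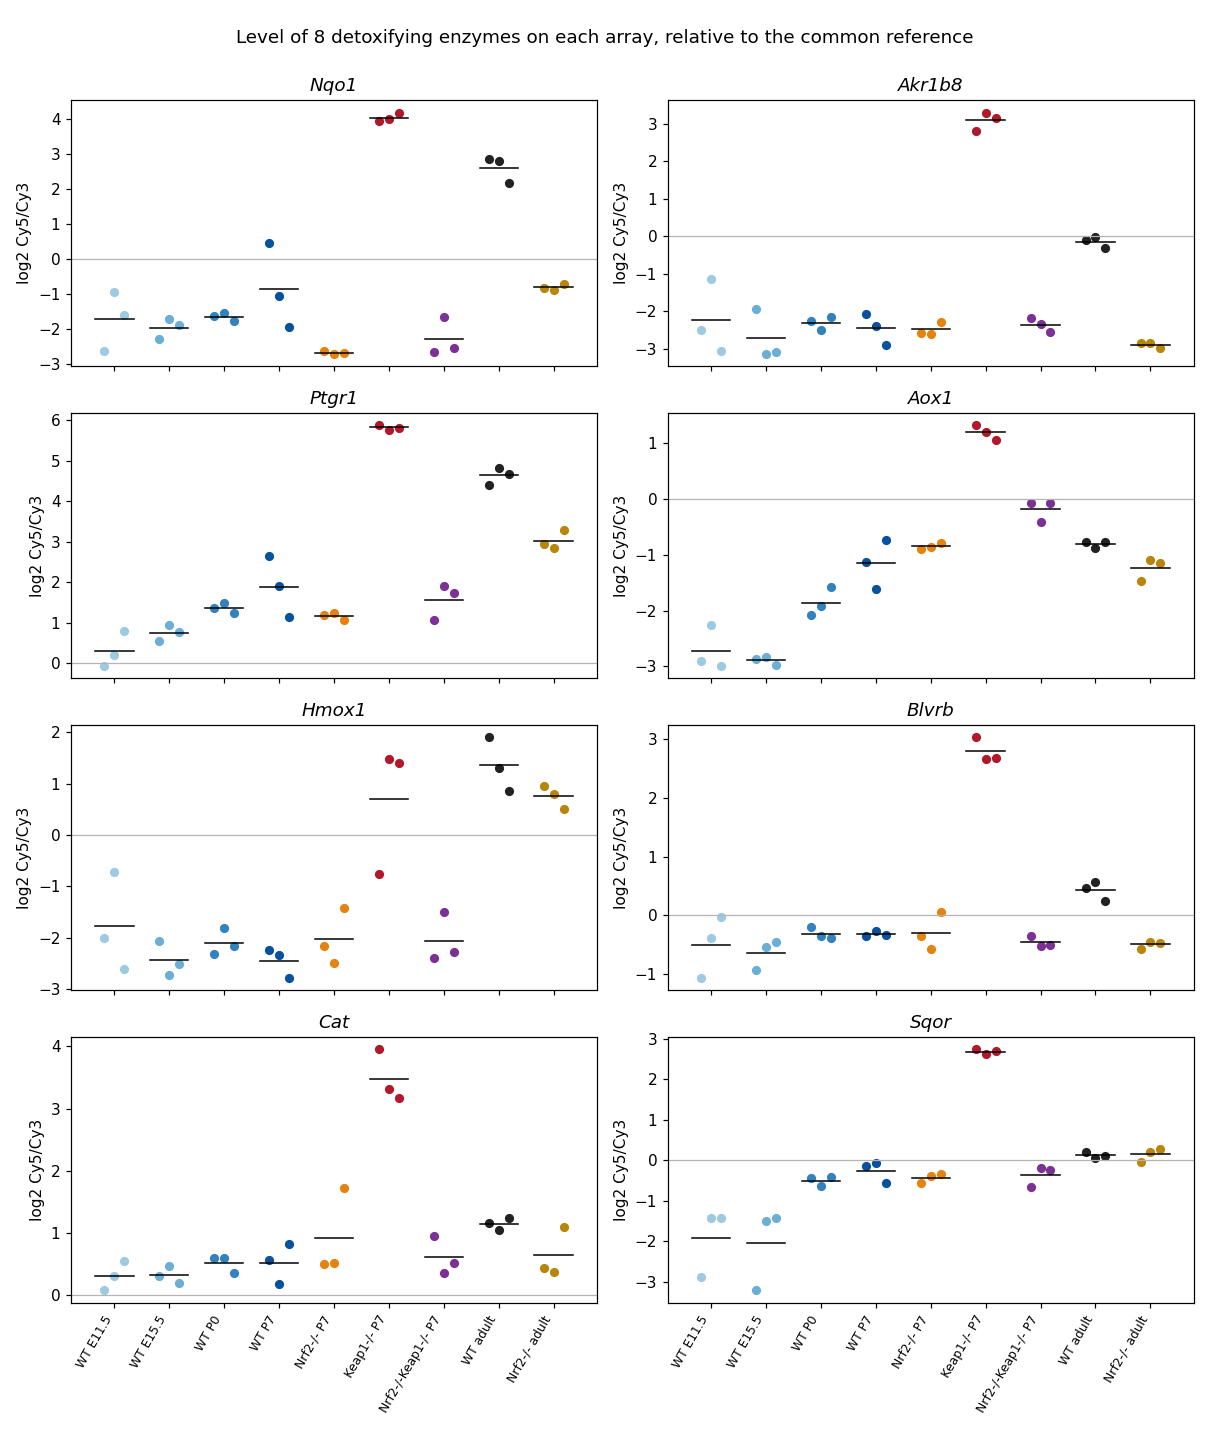
Log2 Cy5/Cy3 of each enzyme on every array (points) in the 9 groups, with the mean of 3 arrays as a line. The Keap1-/- arrays lie above all other P7 arrays in each panel. The adult WT arrays lie above the WT arrays of every earlier stage in each panel but that of Aox1.

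**Figure D2:**
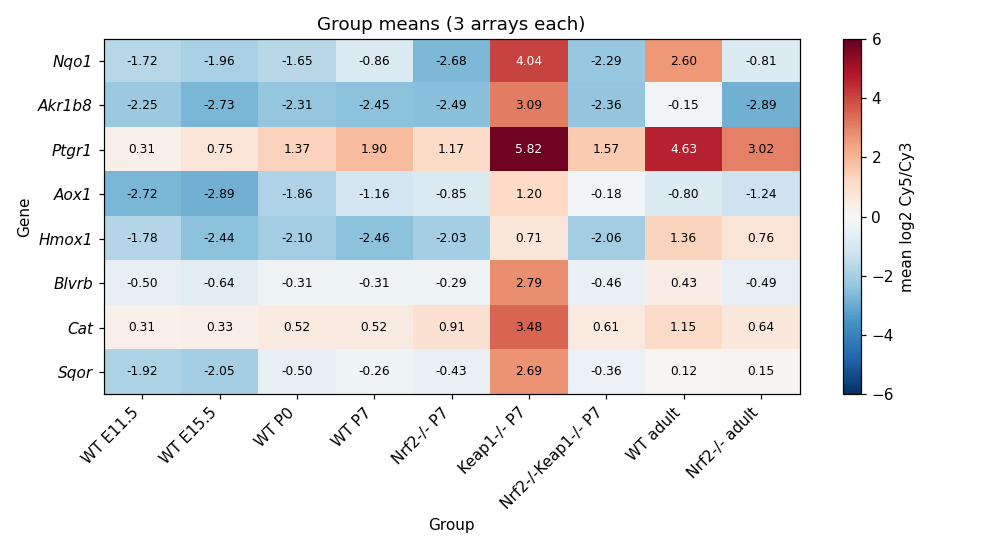
Mean log2 Cy5/Cy3 over 3 arrays for each enzyme (rows) and group (columns), with the colour scale running from -6 to 6. Keap1-/- at P7 holds the highest mean of every row but that of Hmox1, which is highest in WT adults at 1.36.

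All 8 enzymes were higher in Keap1-/- than in WT at P7, by 5.10-fold for Aox1 to 46.7-fold for Akr1b8. The arrays of the groups did not overlap for any of them. Genotype cannot be told apart from slide, scan and software version here. Across all 19037 genes tested in this comparison, 33.3% were called at an adjusted p of 0.05 or lower and 15.4% were called higher, and 45.1% had arrays that did not overlap. The median difference of the 8 enzymes was 3.14 log2 units, against -0.02 for all genes tested. Each enzyme was called by limma in all 12 fits that left out 1 of the 12 P7 arrays.

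Akr1b8, an aldo-keto reductase that uses NADPH to turn reactive aldehydes into alcohols (chromosome 6, 34354146 to 34368461 in GRCm38.p6), moved furthest. It read 2.82, 3.30 and 3.16 on the Keap1-/- arrays and -2.07, -2.39 and -2.91 on the WT arrays at P7. The difference was 5.55 ± 0.21 (SE; limma adjusted p = 2.45e-08). Nqo1, which reduces quinones straight to hydroquinones and so keeps them from cycling through the reactive semiquinone (chromosome 8, 107388225 to 107403205), read 3.95, 3.99 and 4.18 in Keap1-/- and 0.45, -1.06 and -1.96 in WT. Its difference was 4.89 ± 0.48 (adjusted p = 3.79e-05), and the spread came from the WT arrays, which covered more than 2 log2 units while the Keap1-/- arrays lay within 0.25 of each other. Ptgr1, a reductase of alpha,beta-unsaturated aldehydes and ketones that also inactivates leukotriene B4 (chromosome 4, 58965590 to 58987131), read 5.89, 5.76 and 5.81 against 2.65, 1.90 and 1.14. That is a difference of 3.92 ± 0.32 (adjusted p = 1.10e-05), and its WT arrays followed the same order as those of Nqo1, with replicate 1 highest and replicate 3 lowest.

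Aox1 is a molybdenum- and flavin-containing oxidase that turns aldehydes into acids (chromosome 1, 58029809 to 58106410). It read 1.33, 1.20 and 1.05 in Keap1-/- and -1.12, -1.61 and -0.73 in WT, a difference of 2.35 ± 0.19 (adjusted p = 9.99e-06), the smallest of the 8. Its promoter is shown because it was the only one with a motif match among the 7 enzymes that had a promoter window. Hmox1 had no window and was not searched. The motifs, searched on both strands, were TGACNNNGC, the core of the antioxidant response element, and TGACTCA, the AP-1 site. The sequence is from RefSeq on GRCm38.p6, plus strand, chr1:58029719-58029798, with the TGACTCA match in capitals.
Aox1 promoter: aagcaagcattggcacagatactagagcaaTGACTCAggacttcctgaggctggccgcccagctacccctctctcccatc
The match begins 220 bases before the transcript start used for the promoter window and 60 bases before the start of the gene in the annotation. Windows ran from 250 bases before to 50 after a start, and 7 of the 8 enzymes had 1 or more, 8 windows in all. TGACNNNGC was in 0 of these 8, against 12.4% of all 32851 windows, and TGACTCA was in 1 of 8, against 5.2%. These matches describe letters in a short window, and elements further away were not searched.

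The pair of heme enzymes also rose. Hmox1, which opens the heme ring to biliverdin and frees iron and carbon monoxide (chromosome 8, 75093618 to 75100593), read -0.75, 1.48 and 1.40 in Keap1-/- and -2.25, -2.34 and -2.79 in WT. One Keap1-/- array thus lay more than 2 log2 units under the others, and the difference of 3.17 carried the largest error of the 8 (SE 0.53, adjusted p = 0.00124). Blvrb, a reductase of flavins and of biliverdin isomers that acts after heme oxygenase (chromosome 7, 27447978 to 27465981), read 3.03, 2.65 and 2.68 against -0.34, -0.26 and -0.33. Its WT arrays were within 0.08 of each other, and the difference was 3.10 ± 0.15 (adjusted p = 2.35e-07).

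Cat, the peroxisomal catalase that splits hydrogen peroxide into water and oxygen (chromosome 2, 103453904 to 103485153), read 3.95, 3.31 and 3.17 in Keap1-/- and 0.57, 0.18 and 0.82 in WT. The difference was 2.96 ± 0.33 (adjusted p = 0.000107). Sqor, the mitochondrial enzyme that oxidises hydrogen sulfide and passes its electrons to ubiquinone (chromosome 2, 122765327 to 122809553), read 2.75, 2.62 and 2.70 against -0.15, -0.06 and -0.56. Its difference of 2.94 ± 0.15 (adjusted p = 3.20e-07) was close to that of Cat.

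Other features of the Keap1-/- samples moved with these results, and their part in them was not tested. Of the cell type markers, 5 of 6 smooth muscle, 5 of 6 fibroblast and 4 of 5 tested columnar or ciliated epithelium genes were lower in Keap1-/- than in WT, and their mean levels per array ran from 2.41 to 3.17 against 3.59 to 4.02, from 0.46 to 0.92 against 1.75 to 2.07, and from -1.56 to -1.35 against 0.35 to 0.80, with Dnah5 not well above background on any Keap1-/- array. The sixth smooth muscle gene was higher. Skeletal muscle markers were higher in 2 of 8 and lower in 1, and fat markers were higher in 1 of 5, at 2.06 to 3.00 against 1.18 to 1.84. Squamous epithelium markers were at 3.87 to 4.10 against 3.61 to 4.16, with 1 of 8 higher. Markers of macrophages, which carry Hmox1 in many tissues, were at 0.11 to 0.57 against 0.41 to 0.49, with 1 of 8 higher and 4 lower. The Cy3 reference signal was lower over the whole Keap1-/- arrays, with medians of 115 to 147 against 223 to 386 on the other 24 arrays, and for 5 of the 8 enzymes (Akr1b8, Ptgr1, Aox1, Hmox1 and Sqor) it lay below that of every other array. It was at 25030 to 40100 for Akr1b8 against 72250 to 129400, and at 7355 to 10350 for Ptgr1 against 18140 to 67260, while for Nqo1 it was 5055 to 6534 against 5492 to 13540. With the Cy5 channel alone the differences were 4.81 for Akr1b8, 3.39 for Ptgr1 and 5.49 for Nqo1, and all 8 enzymes were still called.

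Genes of the same pathways outside the group were called in shares of 31.2 to 38.9% for the quinone and carbonyl, heme and iron, and peroxide lists, close to the 33.3% of all genes, and in larger shares of the small molybdenum (66.7% of 9) and sulfide (50% of 6) lists. These shares hold both directions. Most calls in the lists were higher, where 15.4% of all genes were called higher, and this split was not tested. Of 22 other quinone and carbonyl genes tested, 6 were higher and 1 lower in Keap1-/-, led by Aldh3a1, an aldehyde dehydrogenase (4.22 ± 0.26), and the carbonyl reductases Cbr3 (3.01 ± 0.20) and Cbr1 (2.52 ± 0.23). Of 18 other heme and iron genes, 6 were higher and 1 lower. Alas1, which makes the first committed step of heme synthesis, rose by 1.99 ± 0.15 and the heme transporter Slc48a1 by 1.93 ± 0.13. Bach1, the heme-binding repressor of Hmox1, rose by 1.05 ± 0.23. For their place beside Hmox1 and Blvrb, a further pair was named after its values were seen. Hmox2, the constitutive heme oxygenase, rose by 0.42 (adjusted p = 0.00445), and Blvra, the main biliverdin reductase, read 0.00 (adjusted p = 0.99). Among 9 molybdenum enzyme and cofactor genes 5 were higher and 1 lower, with Aox4 at 2.72 ± 0.66, Mocos, which sulfurates the cofactor of aldehyde oxidases, at 1.83 ± 0.32, and Xdh at 1.77 ± 0.20. Peroxide and superoxide genes were called higher in 5 of 16, led by Srxn1 at 4.37 ± 0.15, and sulfide genes were higher in 2 of 6 and lower in 1, with Mpst at 2.91 ± 0.11 and Ethe1, the dioxygenase that acts after Sqor, at 1.37 ± 0.26. Suox, the molybdenum enzyme that oxidises sulfite, was at -0.89 ± 0.17 and is the lower gene of both the molybdenum and the sulfide list. A list of 20 well-known Nrf2 targets outside the group had 19 higher, with a median of 2.39.

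With Nrf2 missing as well, the enzymes lay far below their Keap1-/- level. All 8 were higher in Keap1-/- than in Nrf2-/-Keap1-/- mice, where 33.4% of all genes were called and 15.1% called higher, and the arrays of the 2 groups did not overlap for any of the 8, as for 48.5% of all genes. This comparison shares the Keap1-/- arrays with the comparison against WT, so the 2 are not independent. The difference was 6.33 ± 0.48 for Nqo1, which read -2.65, -1.67 and -2.56 in Nrf2-/-Keap1-/- (adjusted p = 6.35e-06). Akr1b8 differed by 5.45 ± 0.21, Ptgr1 by 4.25 ± 0.32, Blvrb by 3.25 ± 0.15, Sqor by 3.05 ± 0.15, Cat by 2.87 ± 0.33, Hmox1 by 2.77 ± 0.53 and Aox1 by 1.38 ± 0.19. Lower in Keap1-/- here were 4 of 5 fat, 5 of 6 fibroblast and 4 of 5 columnar or ciliated epithelium marker genes. So were 3 of 8 macrophage and 2 of 5 endothelium genes. Fat markers were at 2.06 to 3.00 against 3.95 to 4.65 per array. Called higher were 2 of 8 squamous epithelium genes, and 1 each of 8 macrophage, 8 skeletal muscle, 6 smooth muscle and 5 red cell genes. The part of these markers in the result was not tested.

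The difference seen with Keap1 loss was larger with Nrf2 than without it for each enzyme, by a test of the dependence itself. The Keap1-/- arrays enter this test, so it cannot separate the genotype from their slide, scan and software version. The interaction, the difference between Keap1-/- and WT minus the difference between Nrf2-/-Keap1-/- and Nrf2-/-, was called for 8 of 8, all positive, where 15.2% of all genes were called and 7.17% called positive. It was 5.42 ± 0.29 for Akr1b8 (adjusted p = 1.11e-06), 4.51 ± 0.67 for Nqo1, 3.52 ± 0.45 for Ptgr1, 3.27 ± 0.22 for Blvrb, 3.26 ± 0.47 for Cat, 3.20 ± 0.75 for Hmox1, 2.87 ± 0.21 for Sqor and 1.69 ± 0.27 for Aox1 (adjusted p = 0.00236). Hmox1 had the largest adjusted p (0.0167), which rose to 0.0459 at most when 1 array was left out.

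In the absence of Nrf2, no enzyme was called for Keap1 loss after adjustment over all genes. Nrf2-/-Keap1-/- and Nrf2-/- mice differed by -0.31 for Cat to 0.66 for Aox1, and limma called 0 of the 8 as well as 0% of all genes, with 1189 genes (6.25%) at 0.05 or lower before adjustment. Aox1 was the only enzyme whose arrays did not overlap, as for 14.3% of all genes. It read -0.07, -0.41 and -0.07 in Nrf2-/-Keap1-/- and -0.89, -0.85 and -0.80 in Nrf2-/- (0.66, 95% confidence interval 0.25 to 1.08, adjusted p = 0.679). For the others the widest intervals were those of Hmox1 (-1.20 to 1.14) and Nqo1 (-0.66 to 1.43) and the narrowest that of Sqor (-0.27 to 0.40), so changes of such a size could go unseen on these arrays.

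Against WT, Nrf2-/-Keap1-/- mice had no enzyme called, where 0.431% of all genes were called and 21.6% had arrays that did not overlap. Aox1 stood highest above WT, by 0.97 ± 0.19 (adjusted p = 0.0571), with arrays apart. It was called with all 27 arrays in 1 fit (adjusted p = 0.0153), with slide as a random block (0.0238) and without WT replicate 3 (0.0197). Nqo1 was lower by 1.43 on average (95% confidence interval -2.48 to -0.39, adjusted p = 0.162), with overlapping arrays, and was called without WT replicate 3 (-1.99, adjusted p = 0.0454). Blvrb had arrays apart over a difference of -0.15 (adjusted p = 0.677). Fat markers were called higher in 3 of 5 in these mice, at 3.95 to 4.65 against 1.18 to 1.84 in WT, and their part in the Aox1 values was not tested.

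**Figure D3:**
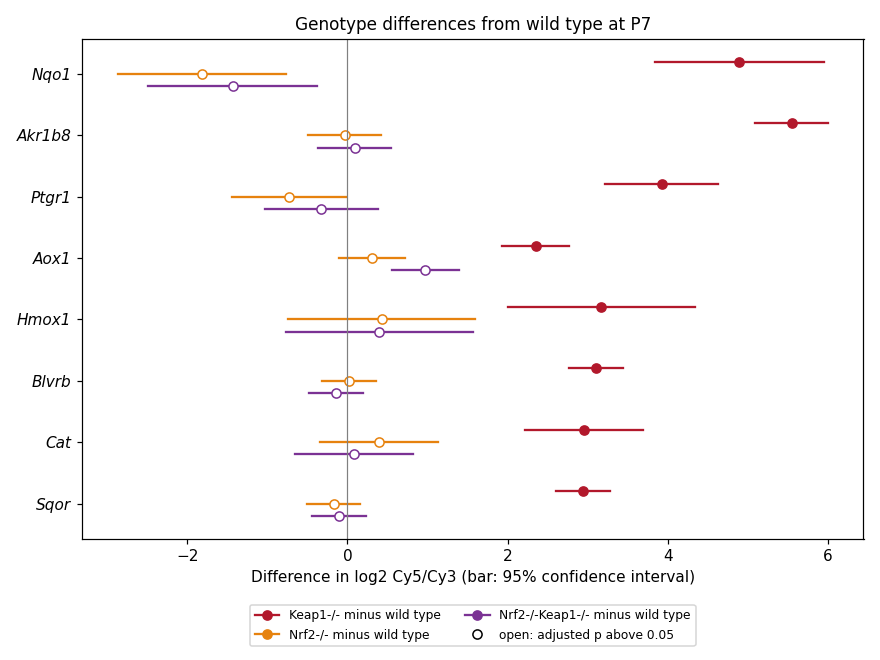
Differences in log2 Cy5/Cy3 between genotypes at P7 for each enzyme, with 95% confidence intervals and open points where the adjusted p was above 0.05. Keap1-/- minus WT lies between 2.35 and 5.55, while no difference without Nrf2 was called.

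Loss of Nrf2 alone at P7 left the 8 enzymes uncalled, where 3 of 19037 genes (0.0158%) were called and 2038 (10.7%) passed 0.05 before adjustment. Nqo1 was the enzyme with the largest difference. It read -2.63, -2.71 and -2.69 in Nrf2-/- and 0.45, -1.06 and -1.96 in WT, so every Nrf2-/- array lay under every WT array, as for 16.4% of all genes in either direction. The mean difference was -1.82 (95% confidence interval -2.87 to -0.77), and its adjusted p was 0.362. Ptgr1 differed by -0.73 (-1.44 to -0.02), with 1 WT array inside the range of the Nrf2-/- arrays. The remaining enzymes differed by -0.17 for Sqor to 0.43 for Hmox1, with overlapping arrays. Of the 20 well-known Nrf2 targets 0 were called, with a median of -0.18.

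In WT mice 6 of the 8 enzymes were higher in adult epithelium than in P7 esophagus, where 43% of all genes were called and 20% called higher. Hmox1 moved furthest. It read 1.91, 1.30 and 0.86 in adults and -2.25, -2.34 and -2.79 at P7, a difference of 3.82 ± 0.28 (14.1-fold, adjusted p = 8.04e-05). Nqo1 read 2.85, 2.78 and 2.18 in adults, 3.46 ± 0.55 above P7 (adjusted p = 0.00224). Ptgr1 read 4.41, 4.82 and 4.67 and was higher by 2.74 ± 0.35 (adjusted p = 0.000851). Akr1b8 read -0.09, -0.02 and -0.33 and was higher by 2.31 ± 0.22 (adjusted p = 0.000241). The quinone and carbonyl reductases and heme oxygenase thus carried the large differences.

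Smaller differences were found for the others. Blvrb was higher by 0.74 ± 0.13 (adjusted p = 0.00312) and Cat by 0.62 ± 0.18 (0.0247), and the call for Cat was lost without any 1 of the 3 adult arrays or without P7 replicate 1. Sqor differed by 0.38 (95% confidence interval 0.01 to 0.75, adjusted p = 0.0886) with arrays that did not overlap, as for 56% of all genes, and was called without P7 replicate 2 (0.48, adjusted p = 0.0483). Aox1 differed by 0.35 (-0.15 to 0.86, adjusted p = 0.227). Adult replicate 3 was read in another scan and with a newer software version. Within the scan that holds both ages, Hmox1 differed by 4.07 and Nqo1 by 3.67, and Cat by 0.58 (adjusted p = 0.0685).

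Markers of tissues around the epithelium were lower in the adult samples, and their part in the results was not tested. All 8 skeletal muscle, 6 of 6 fibroblast and 4 of 4 tested red cell genes were lower in adults, with means per array of 0.93 to 1.70 against 4.01 to 4.91, -0.35 to 0.28 against 1.75 to 2.07, and 0.56 to 0.58 against 1.74 to 2.30. Smooth muscle genes were lower in 4 of 6, at 2.73 to 2.96 against 3.59 to 4.02, and endothelium genes in 4 of 5. Macrophage markers were lower in 4 of 8 and higher in 1, at -0.66 to 0.02 against 0.41 to 0.49. Squamous markers were at 4.23 to 4.71 against 3.61 to 4.16, with 3 of 8 higher. Columnar or ciliated epithelium genes were lower in 3 of 4 tested, at -1.78 to -1.56 against 0.35 to 0.80. The part of these epithelial markers was not tested either.

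Of the related lists in adults, 45.5% of the quinone and carbonyl and 38.9% of the heme and iron genes were called, near the 43% of all genes, against 66.7% of the peroxide, 75% of the molybdenum and 83.3% of the sulfide genes, and differences between lists were not tested. Of 22 other quinone and carbonyl genes 5 were higher and 5 lower, with Aldh3a1 at 4.30 ± 0.18 and Cbr3 at 2.10 ± 0.21, and with Akr1c18, a steroid-reducing aldo-keto reductase, at -2.89 ± 0.22. Of 18 heme and iron genes 3 were higher and 4 lower, with the heme scavenger Hpx at -2.81 ± 0.75 and the iron exporter Slc40a1 at -1.14 ± 0.39. Although Aox1 was not called, 6 of 8 tested molybdenum enzyme and cofactor genes were higher, with Aox4 at 4.60 ± 0.30 and Mocos at 2.54 ± 0.24. Sulfide genes were higher in 5 of 6, with Cbs, which can make hydrogen sulfide, at 1.92 ± 0.13, and Ethe1 at 1.00 ± 0.16. Prdx5 led the peroxide genes at 2.10 ± 0.12, where 7 of 15 were higher and 3 lower. Among the 20 well-known Nrf2 targets, 17 were higher in adults and 0 lower (85% called), with a median of 1.12.

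Without Nrf2, adult epithelium had lower Nqo1, Akr1b8, Ptgr1 and Blvrb than WT adult epithelium, 4 of 8 enzymes, where 0.455% of all genes were called and 0.222% called lower. These comparisons share the WT adult arrays with the comparison of age in WT. Nqo1 read -0.83, -0.88 and -0.72 in Nrf2-/- adults, a difference of -3.41 ± 0.19 (10.7-fold lower, adjusted p = 0.000530). Akr1b8 read -2.85, -2.85 and -2.99, a difference of -2.75 ± 0.13 (adjusted p = 0.000445), which placed it at the lowest group mean of all 9. Both were called in each of the 6 fits without 1 adult array.

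Ptgr1 and Blvrb rested on less. Ptgr1 read 2.94, 2.84 and 3.28, lower by 1.61 on average (SE 0.16, adjusted p = 0.00929), and its call was lost without WT replicate 2 (adjusted p = 0.0590) or Nrf2-/- replicate 2 (0.0589). Blvrb read -0.57, -0.44 and -0.47 against 0.46, 0.57 and 0.25 in WT, a difference of -0.92 ± 0.13 (adjusted p = 0.0307). It was not called without WT replicate 1 (0.0706) or 2 (0.143), or Nrf2-/- replicate 2 (0.161) or 3 (0.102). The 3 Nrf2-/- arrays and WT replicate 3 were read with the newer software and the other WT arrays with the older. Among the arrays of the newer version alone, with 1 WT array whose spread was taken from the Nrf2-/- arrays, Nqo1 differed by -2.99 and Akr1b8 by -2.57, both called, while Ptgr1 differed by -1.65 (adjusted p = 0.155) and Blvrb by -0.74 (0.195).

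The other 4 enzymes were not called in adults. Hmox1 read 0.96, 0.80 and 0.51 in Nrf2-/-, with arrays that overlapped those of WT (-0.60, 95% confidence interval -1.20 to -0.01, adjusted p = 0.291). Aox1 differed by -0.43 (-0.74 to -0.12, adjusted p = 0.19) with arrays apart, as for 22.7% of all genes. Cat differed by -0.51 (-0.96 to -0.05, adjusted p = 0.261) and Sqor by 0.03 (-0.27 to 0.32). Outside the group, Cbr3 was lower by 1.17 on average (adjusted p = 0.0361) as the only called gene of 21 quinone and carbonyl genes, and Srxn1 by 0.90 (0.0303) as the only called gene of 15 peroxide genes. None of 18 heme and iron genes was called by limma, and 6 of the 20 well-known Nrf2 targets were lower. Skeletal muscle markers were at 1.71 to 2.68 in Nrf2-/- against 0.93 to 1.70 in WT adults, red cell markers at 0.88 to 0.98 against 0.56 to 0.58, and macrophage markers at 0.04 to 0.80 against -0.66 to 0.02. Of these genes 1 of 3 tested red cell genes was called higher and no other, and their part in the enzyme differences was not tested.

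Between P7 and adult in Nrf2-/- mice, 4 of 8 enzymes were higher, where 55.1% of all genes were called and 27.1% called higher. Hmox1 was higher by 2.79 ± 0.30, Nqo1 by 1.87 ± 0.45, Ptgr1 by 1.85 ± 0.30 and Sqor by 0.58 ± 0.14. Akr1b8 differed by -0.41 (95% confidence interval -0.82 to 0.00, adjusted p = 0.0861) with arrays that did not overlap, as for 65.3% of all genes, whereas in WT it was 4.95-fold higher in adults. Aox1 also had arrays apart (-0.39, adjusted p = 0.0988). In the fit of 12 arrays, which shares 1 estimate of spread, Akr1b8 was called lower without WT P7 replicate 1 (0.0454) or 3 (0.0269), and Aox1 without WT P7 replicate 2 (0.0264) or 3 (0.0410). Akr1b8 was also called lower with processed signals (-0.64, adjusted p = 0.0314) and the deposited ratios (-0.64, 0.0312). Cy5 alone and only the groups compared called both lower, Akr1b8 at -0.52 (0.0323) and -0.41 (0.0233), Aox1 at -0.505 (0.0430) and -0.39 (0.0305). Under median centring, without loess, Akr1b8 instead read 0.64 (adjusted p = 0.0239) and Blvrb 0.71 (0.0122), where the median of all genes was 0.27. With scan as a block, Nqo1 was at 2.46 (adjusted p = 0.0698), Ptgr1 at 1.67 (0.0642) and Sqor at 0.54 (0.167), and Hmox1 alone was called. Markers lower in Nrf2-/- adults were 6 of 6 fibroblast, 6 of 6 smooth muscle, 6 of 8 skeletal muscle and 5 of 5 tested red cell genes. So were 4 of 5 each of fat, endothelium and columnar or ciliated epithelium genes. Squamous markers were higher in 4 of 8, and macrophage markers higher in 3 of 8 and lower in 3. Their part in the enzyme differences was not tested. The divergence of Akr1b8 between the genotypes was tested as the effect of Nrf2 loss in adults minus the effect at P7. It was -2.71 ± 0.27 for Akr1b8 (adjusted p = 0.00267) and was called for no other enzyme, where 0.0981% of all genes were called and 0.031% called lower. With scan as a block the Akr1b8 value was -2.49 (adjusted p = 0.0650). For Nqo1 it was -1.59 (95% confidence interval -2.99 to -0.20, adjusted p = 0.385) and for Hmox1 -1.03 (-1.97 to -0.08, adjusted p = 0.406), so a difference between ages was not shown for them.

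**Figure D4:**
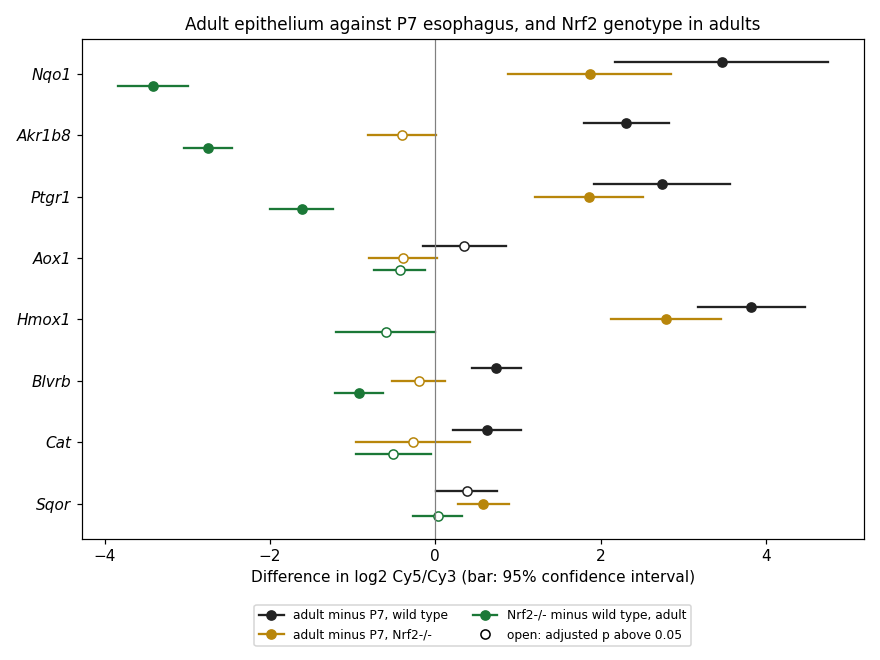
Differences in log2 Cy5/Cy3 for adult epithelium minus P7 esophagus in WT and in Nrf2-/- mice, and for Nrf2-/- minus WT in adults, with 95% confidence intervals and open points where the adjusted p was above 0.05. Hmox1 was higher in adults in both genotypes (3.82 and 2.79), and Akr1b8 in WT alone (2.31 against -0.41 in Nrf2-/-).

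During WT development from E11.5 to P7, 3 of the 8 enzymes differed among the 4 time points in limma's F-test, where 30.1% of all genes were called: Aox1 (adjusted p = 0.00136), Ptgr1 (0.0164) and Sqor (0.0261). Without E11.5 replicate 3 and E15.5 replicate 1 the F-test also called 3 of the 8. From E11.5 to P7 these 3 were higher with arrays apart, where 30.2% of all genes were called, 16.8% called higher and 42.8% had arrays apart. Aox1 went from -2.90, -2.27 and -2.99 at E11.5 to -1.12, -1.61 and -0.73 at P7, a rise of 1.57 ± 0.24 (adjusted p = 0.00126). At E11.5 and E15.5 its Cy5 signal was not well above background on 1 array each. Ptgr1 went from -0.06, 0.21 and 0.79 to 2.65, 1.90 and 1.14, a rise of 1.58 ± 0.33 (adjusted p = 0.00565). Without outlier-marked spots Ptgr1 could not be tested across these stages. Sqor went from -2.89, -1.44 and -1.43 to -0.15, -0.06 and -0.56, a rise of 1.66 ± 0.49 (adjusted p = 0.0264), and lost its call without E11.5 replicate 1 (0.0964) or P7 replicate 1 (0.0716) or 2 (0.0752).

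Between E15.5 and P0, where 19.7% of all genes were called and 11.3% called higher, Aox1 rose by 1.03 ± 0.24 (adjusted p = 0.0150) and Sqor by 1.55 ± 0.49 (0.0475). Sqor read -3.22, -1.51 and -1.42 at E15.5 and -0.45, -0.63 and -0.42 at P0, so the low E15.5 value was that of the array labelled replicate 1. Without E15.5 replicate 1 and E11.5 replicate 3, Sqor differed by 0.96 (adjusted p = 0.0836) and Aox1 by 1.04 (0.0266) at this step. Aox1 lost its call without P0 replicate 3 (0.89, adjusted p = 0.0629), and Sqor also lost it without any 1 of the 3 P0 or 3 P7 arrays. Ptgr1 and Blvrb had arrays that did not overlap between E15.5 and P0, as for 43.9% of all genes, with differences of 0.62 (adjusted p = 0.221) and 0.33 (0.339), or 0.52 (0.344) and 0.19 (0.525) without the same 2 arrays.

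Between the embryonic stages no enzyme was called, where limma called 0% of all genes and 320 genes (1.63%) passed 0.05 before adjustment. Without the 2 arrays that resembled the other stage, still none of the 8 was called at this step, with Hmox1 at -1.26 (adjusted p = 0.0517) and Akr1b8 at -1.29 (0.0611). From P0 to P7, where 2.41% of all genes were called, none of the 8 was called either, with differences of -0.36 for Hmox1 to 0.79 for Nqo1. From E11.5 to P7 without the same 2 arrays, Ptgr1 rose by 1.82, Sqor by 1.91 and Aox1 by 1.43, and Hmox1 was lower by 1.10 on average (adjusted p = 0.0270). Hmox1 was not called with them (-0.68, adjusted p = 0.222), and leaving out E11.5 replicate 3 alone also gave the call (-1.10, adjusted p = 0.0379). Over the same interval 8 of 8 skeletal muscle, 4 of 8 squamous and 5 of 8 macrophage markers were higher, and their part in these results was not tested. Among 19 tested well-known Nrf2 targets, 12 were higher from E11.5 to P7 (63.2%), where 30.2% of all genes were called. The same count was higher from E15.5 to P0, where 19.7% of all genes were called.

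**Figure D5:**
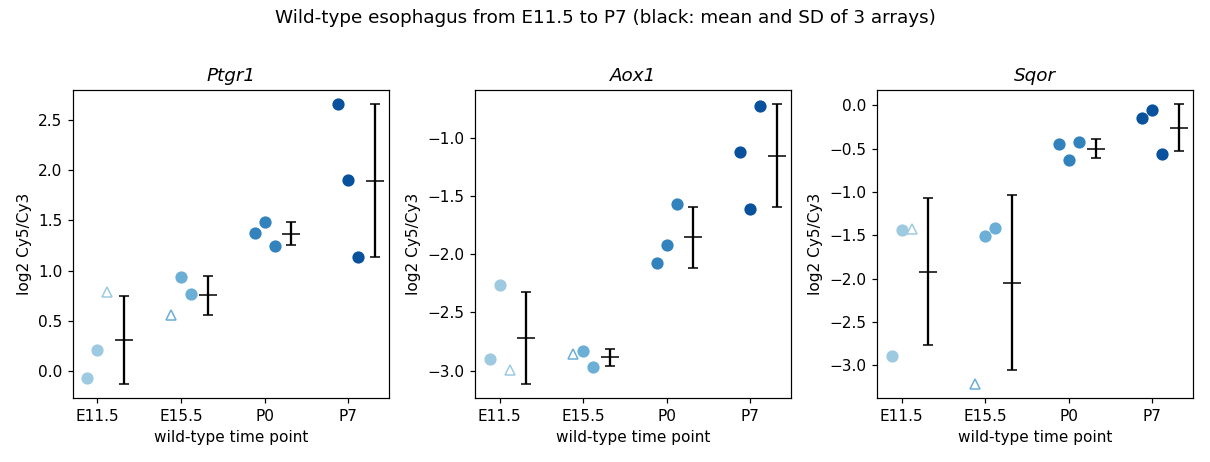
Log2 Cy5/Cy3 of Ptgr1, Aox1 and Sqor in WT esophagus across the 4 time points, with the mean and SD of 3 arrays in black. Open triangles mark the arrays labelled E11.5 replicate 3 and E15.5 replicate 1, and the P7 arrays lie above the E11.5 arrays for each gene.

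Over the 27 arrays, which share groups and a common reference, the enzymes varied together to different degrees, given here as a description. Blvrb and Cat were most alike (r = 0.958), followed by Nqo1 and Ptgr1 (0.939) and Akr1b8 and Blvrb (0.938). Hmox1 was least like the rest, from 0.463 with Aox1 to 0.80 with Ptgr1. Among 18008 genes with a Cy5 signal well above background on at least 14 arrays, the 3 genes most like Nqo1 included Gstp1 (0.964) and Txn1 (0.955), those most like Ptgr1 were Abcc3 (0.974), Gstm1 (0.966) and Gstm3 (0.965), and those of Akr1b8 and of Blvrb included Gclc (0.947 and 0.968). Abcc3 is an organic anion export pump, Gclc the catalytic subunit of glutamate-cysteine ligase, and the Gst genes encode glutathione transferases. Nearest to Hmox1 were Ugcg, Plcg2 and Fcho1 (0.953 to 0.960), to Aox1 Nol3, Slc25a12 and Lpin1 (0.951 to 0.955), and to Cat Blvrb, Spr and Abcb6 (0.928 to 0.958).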

How the data were processed

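Total RNA from 27 mouse esophageal samples was hybridised with Cy5 against a Cy3-labelled mouse universal reference on Agilent 4x44k arrays, without dye swaps. The scanner files deposited by the authors hold intensity values per spot in both channels, from Agilent Feature Extraction 10.5.1.1 (20 arrays) or 10.7.3.1 (7 arrays) per the file headers. Version 9.1 is named in the submitters' processing notes. The authors also deposited a value table of log10 ratios, which differed from the software's log10 ratios by at most 0.005 and served as an alternative. Further columns deposited by the authors, of other kinds (flags and names), gave the marks for background and outliers. The study's methods name another scanner and image program than the headers do.

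Intensities were background-corrected by normexp (offset 50) and normalized by loess with limma 3.58.1 in R 4.3.3, with control spots given no weight. Spots with a local background above 5 times the array median were set aside, a rule chosen after seeing the data (0.00367% of spots). Outlier-marked spots were kept, since the marks fell on 16 of 27 arrays for Akr1b8 and for Hmox1. Probes were averaged per gene. A gene was tested where the Cy5 signal of a probe exceeded background, by the software's mark, on 3 arrays or more. Development (12 arrays), the P7 genotypes (12), WT age (6) and adult genotype (6) each had their own limma fit, while age in Nrf2-/- and the change of the Nrf2 effect with age came from 1 fit of 12 arrays, with Benjamini-Hochberg adjustment over all genes tested and calls at an adjusted p of 0.05 or lower. SAM, the study's method, was not used here. The fits were tested on simulated data. Samples were grouped by GEO's labels, and all 8 enzymes were named in every comparison. From each related list, at most 3 called genes with the largest change were named. Members and lists were chosen with earlier results of these data known. Alternatives covered background, normalization, filters, blocks, samples fitted and each array left out. The number of arrays limits the precision. The genes most like Sqor are not reported here.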

Additional observations from a re-analysis of the deposited data

Results flagged for a closer look

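The effect of Keap1 loss at P7 differed between mice with and without Nrf2 for all 8 enzymes by a test of the difference itself (limma, Benjamini-Hochberg adjusted). The difference between the effects, in log2 units, was 5.42 for Akr1b8, 4.51 for Nqo1, 3.52 for Ptgr1, 3.27 for Blvrb, 3.26 for Cat, 3.20 for Hmox1, 2.87 for Sqor and 1.69 for Aox1, with adjusted p-values from 1.11e-06 to 0.0167. The Keap1-/- arrays that enter it were alone on their slide and scan and, at P7, in their software version, which cannot be told apart from the genotype.

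The effect of Nrf2 loss differed between adults and P7 for Akr1b8, by -2.71 (adjusted p = 0.00267). Adults were sampled as epithelium and P7 mice as whole esophagus.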

How the results depend on the processing

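The calls for Keap1-/- against WT and against Nrf2-/-Keap1-/-, and those of the interaction, were 8 of 8 under every alternative run but one: with outlier-marked spots left out only 5 enzymes could be tested, and all 5 were called in each. The same choice gave 2 in place of 6 called enzymes for age in WT (4 testable), 1 in place of 4 for the adult genotypes (5 testable), 1 in place of 4 for age in Nrf2-/- and 0 in place of 1 for the Nrf2 effect by age (4 testable). With P7 against E11.5, leaving these spots out gave 2 in place of 3 called enzymes (5 testable). For P0 against E15.5 the count fell from 2 to 1 with outlier-marked spots left out, processed signals, the deposited ratios, median centring, scale normalization, no filter on dim probes, slide as a random block, Cy5 alone, or both exchanged-looking arrays left out, and to 0 with the local background as read. With only the groups compared Ptgr1 was called there and Sqor was not. Under median centring the F-test called 1 in place of 3 enzymes and the adult genotypes 2 in place of 4, and in Nrf2-/- age Akr1b8 (0.64) and Blvrb (0.71) turned positive. For that age comparison, Cy5 alone and only the groups compared called Akr1b8 and Aox1 lower. Processed signals and the deposited ratios called Akr1b8 lower there and no longer called Sqor. Software version as a block and the newer version alone also gave 2 for the adult genotypes, and scan as a block gave 1 in place of 4 for age in Nrf2-/- and 0 in place of 1 for the Nrf2 effect by age. With all 27 arrays 1 enzyme (Aox1) was called from P0 to P7 and 1 for Nrf2-/-Keap1-/- against WT, which slide as a random block also gave. The cause of these changes was not tested, apart from the loss of testable enzymes.

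With 1 array left out, the counts ran from 0 to 2 for P0 against E15.5, 2 to 4 for P7 against E11.5, 0 to 2 for Nrf2-/-Keap1-/- against WT, 5 to 7 for age in WT, 2 to 4 for the adult genotypes, 4 to 6 for age in Nrf2-/- and 2 to 3 for the F-test. The replicate block gave 2 in place of 4 for the adult genotypes (Ptgr1 adjusted p = 0.0536, Blvrb 0.108) and changed no other count of called enzymes by over 1.5 times. Same-numbered arrays deviated together only for P0 and P7 in WT (r = 0.134, 0.362 and 0.264), so the numbers do not pair the samples elsewhere. Slide, scan and software version as fixed blocks could not be fitted for the Keap1-/- comparisons. Slide as a fixed block could be fitted only for E15.5 against E11.5 and for Nrf2-/-Keap1-/- against Nrf2-/-. Cy5 alone and the subsets by scan or version were chosen after seeing the data.

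Over all genes, the count called rose from 0 to 2674 for E15.5 against E11.5 without both exchanged-looking arrays. It ran from 1723 to 5658 for P0 against E15.5 (3885 as reported), 241 to 1089 for P7 against P0 (475), 3 to 493 for Nrf2-/-Keap1-/- against WT (82), 15 to 1663 for the adult genotypes (82), 4155 to 8669 for age in WT (7725), 5776 to 11163 for age in Nrf2-/- (10672), 9 to 1115 for the Nrf2 effect by age (19) 2 to 9 for Nrf2-/- against WT at P7 (3) and 0 to 4 for Nrf2-/-Keap1-/- against Nrf2-/- (0), and with 1 array left out it was as low as 1873 for the interaction (2887) and 3788 for P7 against E11.5 (5942). Median centring moved the share of calls that were higher from 46.1 to 66% for Keap1-/- against WT, from 47.3 to 61.5% for the interaction, from 49.2 to 69.4% for age in Nrf2-/-, from 55.7 to 36.3% for P7 against E11.5 and from 57.2 to 40.6% for P0 against E15.5, and the local background as read moved it from 46.4 to 27.1% for age in WT. Where few genes were called, alternative backgrounds and scalings spread that share from 28.6 to 85% for the adult genotypes (51.2 as reported), 52.7 to 88.2% for Nrf2-/-Keap1-/- against WT (73.2), 44.2 to 71.4% for P7 against P0 (60.4), 40 to 94.1% for the Nrf2 effect by age (68.4) and 33.3 to 50% for Nrf2-/- against WT at P7 (33.3). With outlier-marked spots left out, the share for Nrf2-/- against WT at P7 was 66.7%. Median centring moved the median of all genes to 0.40 for the adult genotypes, 0.27 for age in Nrf2-/-, 0.30 for the Nrf2 effect by age and 0.11 for Keap1-/- against WT. The 3 arrays per group limit what can be told, and Aox1 was near background in embryos.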
